A study of Trichechus manatus latirostris with 11 samples.

Results

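HOX, SOX, FOX, PAX, LHX and NKX genes encode transcription factors that pattern the embryo and set the identity of tissues. They were chosen by their symbols, as all rows of the deposited table whose transcript record belongs to a RefSeq gene of these families or of 1 further homeobox family. The rule gave 30 of 15298 rows, for 29 different genes, since SOX6 was listed with 2 transcript records. No gene of that further family and no FOXO gene was among them, and FOXP1 was the only FOXP gene. The RefSeq table of the same assembly holds 129 genes whose symbols fit the rule. Only 10080 of the 15298 rows could be matched to a RefSeq symbol. A gene said here to have no row may therefore lie among the unmatched rows. No row of the table had a mean of 0 in either group of animals. A gene without reads in a group may thus also have no row, and members were seen only with reads in each group.

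Buffy coat, the white cell layer of centrifuged blood, was sequenced from Florida manatees (Trichechus manatus latirostris). The red tide group was 4 animals brought from waters with a toxic algal bloom to Lowry Park Zoo for treatment; by the study's methods, 2 of them were sampled on arrival and 2 after a week of treatment. The control group was 7 animals, of which 2 were sampled in Brevard County (Indian River Lagoon), 4 at Crystal River and 1 at Lowry Park Zoo while it recovered from pneumonia. All 11 samples had rRNA and globin RNA depleted before library preparation. The labels describe storage in RNAlater, and the study's methods also describe freezing of the red tide buffy coats. As 1 control was sampled at the same zoo, place and exposure overlap only in part, but the recovered libraries cannot be tied to animals, so the part of place, storage and time of sampling was not tested.

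The deposited table gives, for every row, a mean of normalized counts over all libraries and over each of 2 groups, and no value of a single animal. The overall mean was 4 parts of the first group mean and 7 parts of the second in every row. The columns do not name the groups and are called here the 4-library mean and the 7-library mean. By their weights, and by the table's title, where red tide precedes another group said to be of 7, the 4-library mean is that of the red tide animals and the 7-library mean that of the controls. The directions stated in the study's own text run opposite to this. Its supplement also states that transthyretin was lower in this study and that a Western blot bore this out. It also cites a separate protein survey of the same samples in which transthyretin was decreased. Blot and survey are of protein, whereas the means here are of RNA. The TTR mean was higher in the 4 libraries, at 1.35 against 0.731, with reads in 1 of them, too few for a direction. For weakly expressed rows, the whole reads of each library were recovered from the group means, as only 1 combination of reads gives such a mean. The libraries are named by their size factors, the numbers by which the authors divided the reads to make libraries comparable. These were 1.56, 1.03, 0.620 and 0.372 in the 4-library group and 1.73, 1.53, 1.19, 1.17, 1.11, 1.10 and 0.702 in the 7-library group. One read was therefore worth 0.641 to 2.69 normalized counts in the first group and 0.578 to 1.42 in the second.

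Most factors of these families are switched on in particular embryonic regions and stay off in mature blood cells. A few work in leukocytes: PAX5 holds B cells to their identity, FOXP1 acts in B and T lymphocytes, and FOXO factors govern lymphocyte rest and survival. HOX genes of the A and B clusters are active in blood stem and progenitor cells and fall silent as these mature.

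The members were put in 2 lists by a written list of symbols: those it holds, here PAX5, FOXP1, FOXN2, FOXN3, FOXK1 and FOXJ2, are called leukocyte members, and all others are called other members. The names are only labels of the lists: FOXJ2, FOXK1 and FOXN3 are expressed in many tissues, while HOXB4, HOXA5 and SOX6, which act in blood progenitors or red cell precursors and passed 2-fold, stand among the other members. The leukocyte members had group means within 2-fold of each other, and most other members had the higher value in the 4-library mean. Of the 24 other members, 15 had a 4-library mean at least 2 times the 7-library mean, 6 had the opposite difference and 3 were within 2-fold. None of the 6 leukocyte members passed 2-fold on the means as deposited, but PAX5 did, at a log2 ratio of -1.02, after centring on the median of all rows, and PAX5 and FOXJ2 did, at -1.24 and -1.13, without the library of size factor 0.372. In the table as a whole, 23.9% of rows passed 2-fold towards the 4-library mean and 10.4% towards the 7-library mean. Among the 7982 rows with an overall mean under 40, the range of 29 of the 30 member rows, these shares were 37.5% and 11.9%. On the log2 scale, the 4-library mean divided by the 7-library mean had a median of 1.76 for the other members, -0.48 for the leukocyte members and 1.00 for all members, against 0.14 for all rows and 0.48 for rows under 40. Weak rows as such thus leaned towards the 4-library mean, and the list is described here without a test. Of the 15 members, 10 had 3 or fewer reads over the 7 libraries; of all 1005 rows with so few, 86.9% passed 2-fold in that direction, and their log2 ratios had a median of 3.20 against 6.01 for those members. Counts and medians differed where only rows with an overall mean of at least 10 were kept. Then 1 member passed 2-fold towards the 4-library mean and 3 towards the 7-library mean, against 12.3% and 9.59% of all such rows. The medians were -2.07 for the other members and -0.55 for all members. That filter left few rows: of the other members only FOXA1, HOXA4, HOXB5 and both SOX6 records, and all leukocyte members but FOXN3. These medians thus rest on few genes, with SOX6 counted 2 times. With 1 added to both means, 10 and 4 members passed, against 19.4% and 8.27% of all rows, and the median of the other members was 0.90. At 4-fold, 11 and 3 member rows passed, with both SOX6 records among the 3, against 12.0% and 2.27% of all rows. Of the 15 members, 3 (HOXB3, NKX6-2 and SOX17) had 3 or fewer reads in each group, so that no ratio is given for them and 12 remained.

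**Figure D1:**
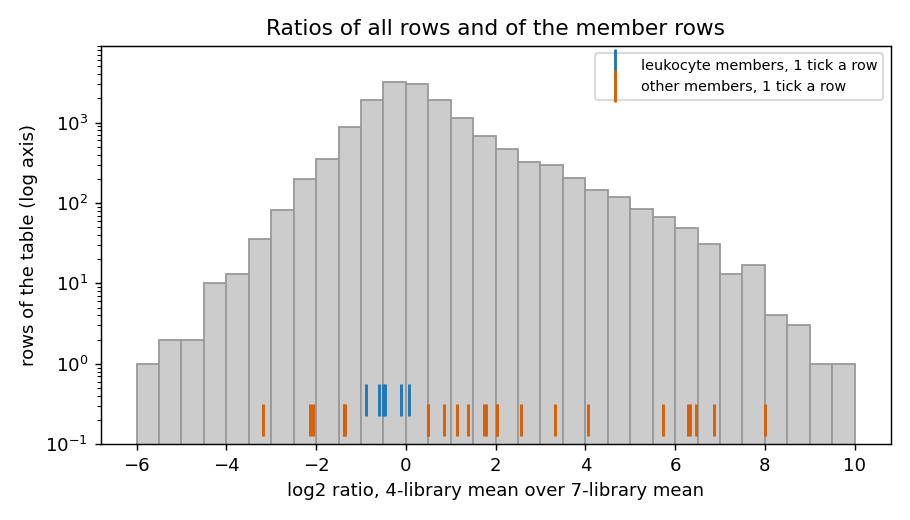
Log2 of the 4-library mean divided by the 7-library mean for all 15298 rows (grey bars, number of rows on a log axis) and for the member rows (ticks, with those of 3 or fewer reads in each group included). The 6 leukocyte ticks lie between -0.88 and 0.07, and those of the other members between -3.18 and 8.01.

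In the 4-library group, 1 library held much of the signal of the other members. The library of size factor 0.620 had the highest normalized count in 18 of 24 such members, or 75.0%, and in 32.6% of all rows under 40 with recovered reads. It carried 59.3% of the summed normalized counts of these members, against 30.7% over the rows under 40. Among the 5 leukocyte members with recovered reads it was highest in 0. Without this library, 12 members passed 2-fold towards the 4-library mean and 10 towards the 7-library mean, against 33.2% and 17.5% of the rows under 40 with recovered reads. Among the 10 were HOXB6 and SOX17, whose 4-library reads all lay in this library, so that a mean of 0 remained and no ratio exists. The median log2 ratio over all members turned to -0.14, while that of the other members was 0.68. The counts of members therefore rest in part on 1 animal of 4.

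**Figure D2:**
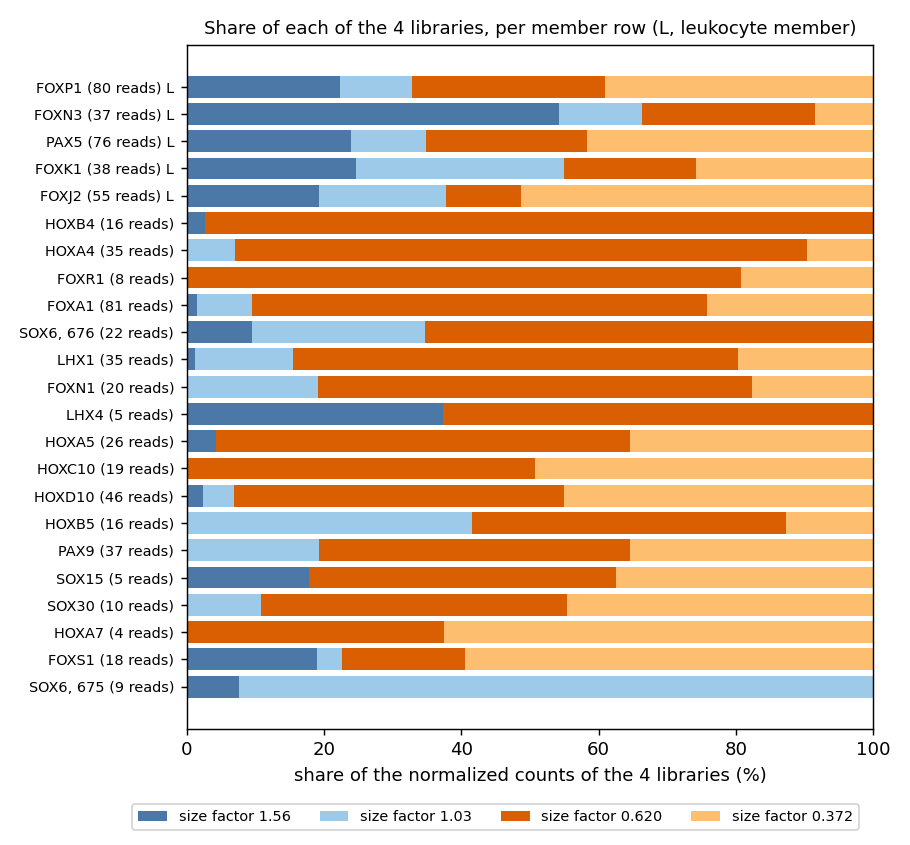
Share of each of the 4 libraries in the normalized counts of a member row, for the reported rows with over 3 reads in the 4 libraries; the number of reads is beside each name, and SOX6 rows carry the last 3 digits of their record. The library of size factor 0.620 (dark orange) takes 97.4% of HOXB4 and 66.4% of FOXA1, and 23.3% of the leukocyte member PAX5.

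FOXA1, a pioneer factor that opens chromatin in liver, gut, lung, prostate and breast epithelium, had the highest ratio of the members. The study lists it as downregulated in red tide, opposite to the groups as matched here by weights and title. The 4 libraries held 3, 11, 55 and 12 reads in the order of falling size factor, or 1.92, 10.7, 88.6 and 32.3 normalized counts. In the 7-library group 1 read was found in all, in the library of size factor 1.10, so that the lowest, the median and the highest normalized count were 0, 0 and 0.905. Every one of the 4 libraries lay above every one of the 7, although the lowest and the highest of the 4 differed widely. The means were 33.4 ± 39.0 (SD, n = 4) and 0.129 ± 0.342 (SD, n = 7), a ratio of 258 with a 95% counting interval of 46.3 to 10199. The log2 ratio of 8.01 was the 9th highest of all 15298 rows and was 6.86 once the library of size factor 0.620 was left out and 4.93 with 1 added to both means. The gene lies at 3095154 to 3100742 in TriManLat1.0, on a scaffold that the RefSeq table does not name.

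The exact two-sided permutation test over the 330 ways to draw 4 of 11 libraries gave FOXA1 p = 0.00606, the smallest p this design allows. After adjustment over the 4446 rows with recovered reads of all 11 libraries, the permutation p was 0.212, so that it did not pass. No row passed, a share of 0% called, while 660 rows had an unadjusted p under 0.05. Even rows at the smallest possible permutation p were adjusted to 0.212, so no row could have passed here. With limma on log2(normalized count + 0.5), the difference of FOXA1 was 4.86 ± 1.10 (SE) with an adjusted p of 0.00122. Limma called 268 of the 4446 rows, all with the higher value in the 4 libraries, which is 6.03%. Such p-values set the difference of the groups against the spread between libraries, which includes counting error at these few reads. The 11-library reads exist only where the 7-library mean is at most 6, while the 4-library mean may reach 80. A row with a 7-library mean above 6 could thus not be tested, however much higher it was there. No count of tested members is therefore given as support.

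HOXD10, a posterior HOX gene of limb and spinal cord development, was the other one of the 19 member rows with reads of all 11 libraries whose groups did not overlap. Its 4 libraries held 1.92, 3.89, 40.3 and 37.7 normalized counts, from 3, 4, 25 and 14 reads. The 7 libraries ranged from 0 over a median of 0 to 1.81, with 2 reads in 1 library. The libraries of the smaller size factors, 0.620 and 0.372, thus stood above the other pair. The ratio of the means, 20.9 ± 20.9 (SD, n = 4) and 0.259 ± 0.684 (SD, n = 7), was 81.0, with a counting interval of 22.4 to 669. The exact permutation p was 0.00606, adjusted 0.212, and limma gave an adjusted p of 0.00797. Of the 4446 rows, 124 had each of the 4 libraries above each of the 7, or 2.79%.

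HOXC10, which patterns the lumbar spinal cord and hindlimb, was read in only part of the 4 libraries. It had 0, 0, 19.3 and 18.8 normalized counts in the 4 libraries, against 1 read over the 7. Both libraries with reads were those of the smaller size factors, and the other pair was at 0 as were 6 of the 7. The means of 9.54 and 0.122 gave a ratio of 78.3 with a counting interval of 14.1 to 3092, and the exact permutation p was 0.218. The log2 ratio of 6.29 was 5.69 without the library of size factor 0.620.

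**Figure D3:**
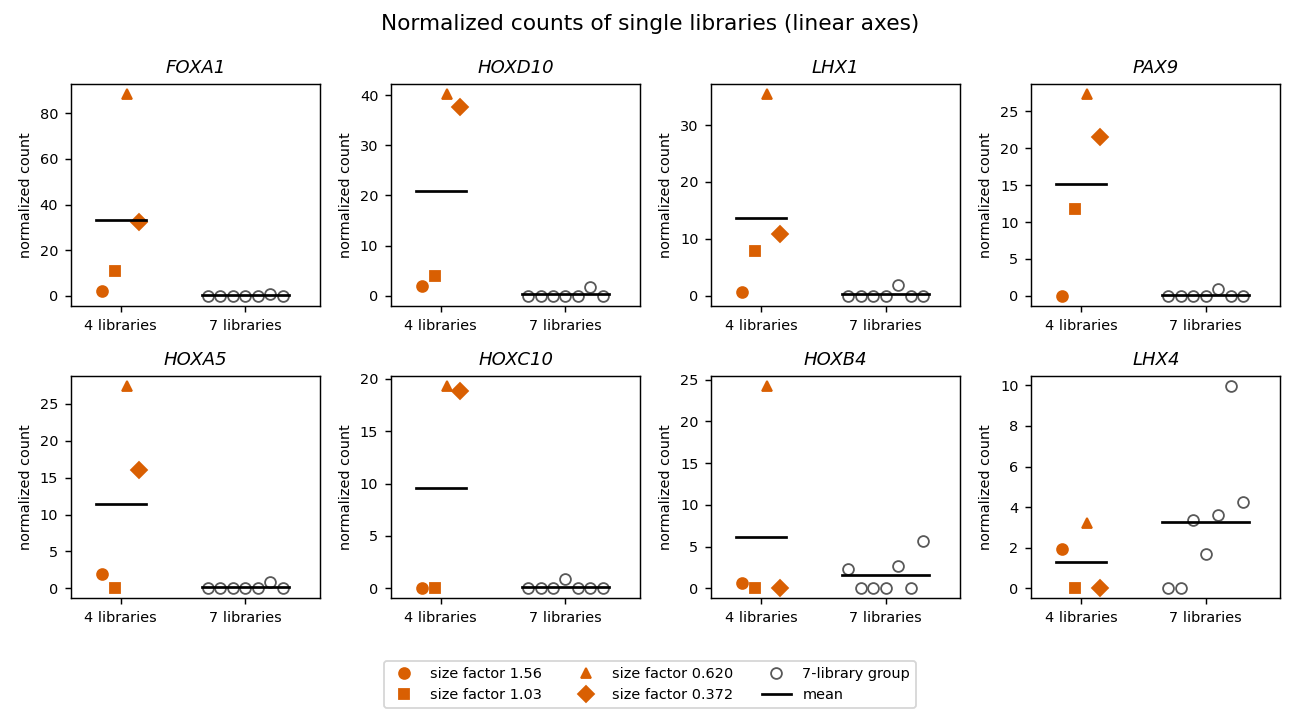
Normalized counts of single libraries for 8 members, with 1 panel a gene on its own linear axis; filled marks are the 4 libraries by size factor, open circles the 7 libraries, and bars the group means. FOXA1 and HOXD10 do not overlap between groups, HOXB4 is high in 1 library of the 4, and LHX4 has its highest value in the 7-library group.

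HOX genes of the A cluster, which act in blood progenitors as well as in the body axis, were measured as 3 of 11 RefSeq genes of that cluster. HOXA5 had 1.92, 0, 27.4 and 16.1 normalized counts in the 4 libraries and 1 read, worth 0.905, in 1 of the 7. Its groups overlapped at 0. The ratio of 11.4 to 0.129 was 87.9, with a counting interval of 15.8 to 3472, the exact permutation p was 0.0485, adjusted 0.327, and limma gave an adjusted p of 0.0509. Leaving out the library of size factor 0.620 took the log2 ratio from 6.46 to 5.54. HOXA7 and HOXA4 fall outside the rule for named genes and are given, after their values were seen, to complete the cluster. HOXA7 had 0, 0, 3.22 and 5.38 normalized counts in the 4 libraries, from 4 reads, and 1 read in the 7. The ratio was 16.6, with a counting interval of 2.99 to 657. HOXA4 had means of 14.0 and 9.94, and 83.4% of its 4-library sum lay in the library of size factor 0.620, without which its log2 ratio of 0.49 turned to -1.69.

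B cluster genes, also known from blood progenitors, did not share a direction. HOXB5 was lower in the 4-library mean, at 5.28 ± 4.69 (SD, n = 4) from 0, 8.76, 9.67 and 2.69, against 23.3, a log2 ratio of -2.14. The reads of single libraries were not recovered for its 7-library mean, so it could not be tested. HOXB6 had 2 reads in 1 of the 4 libraries and 15 reads in 5 of the 7, whose lowest, median and highest values were 0, 1.81 and 4.27. Its log2 ratio was -1.37, or -0.96 without any 1 of the 3 libraries that had no read and -0.77 with 1 added to both means, with an exact permutation p of 0.273. HOXB4, which supports blood stem cell renewal, had the opposite difference of means, 6.20 against 1.53. Its 4 libraries held 0.641, 0, 24.2 and 0, and the 7 ranged from 0 over a median of 0 to 5.70. A single library made the mean: without it the log2 ratio of 2.02 reversed to -2.84, while it was 2.89 without the library of size factor 0.702 of the 7. The exact permutation p was 0.606.

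PAX9, a factor of pharyngeal pouch, tooth and skeletal development, was read in 3 of the 4 libraries. It had 0, 11.7, 27.4 and 21.5 normalized counts there and 1 read over the 7 libraries. The ratio of the means, 15.2 ± 12.0 (SD, n = 4) and 0.129, was 117, with a counting interval of 21.1 to 4636. The exact permutation p was 0.0485, adjusted 0.327, and limma gave an adjusted p of 0.0192. The groups overlapped only through the library of size factor 1.56, which had no read.

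LHX1, a LIM factor of head organizer and kidney development, had 0.641, 7.79, 35.5 and 10.8 normalized counts in the 4 libraries. The 7 libraries ranged from 0 over a median of 0 to 1.81, from 2 reads in 1 library, and so overlapped with the lowest of the 4. The ratio of 13.7 ± 15.1 (SD, n = 4) to 0.258 was 52.9, with a counting interval of 14.6 to 437. The exact permutation p was 0.0121, adjusted 0.267, and limma gave an adjusted p of 0.0233. Its log2 ratio of 5.73 became 4.63 when the library of size factor 0.620 was left out. LHX4, a LIM factor of pituitary and motor neuron development, had the opposite difference. It had 1.92, 0, 3.22 and 0 in the 4 libraries and a range of 0 over a median of 3.36 to 9.96 in the 7. The groups overlapped, with a log2 ratio of -1.35 and an exact permutation p of 0.297. That ratio was -2.35 without the library of size factor 0.620 and was within 2-fold without that of 1.03 or 0.372 (-0.93 each), without that of 1.10 in the 7 libraries (-0.75) and with 1 added to both means (-0.90).

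FOXR1, a forkhead factor little studied outside germ cells and brain, had 0, 0, 11.3 and 2.69 in the 4 libraries and up to 4.27 in the 7. Its log2 ratio of 2.04 was 0.08 once the library of size factor 0.620 was left out, and 3.64 without that of 0.702 in the 7; the exact permutation p was 0.388. FOXS1, a forkhead factor of neural crest derivatives and pericytes, had 5.13, 0.974, 4.84 and 16.1 in the 4 libraries and a lowest, median and highest value of 0, 2.71 and 5.70 in the 7. It was read in 6 of the 7 libraries, and its log2 ratio of 1.14 had an exact permutation p of 0.261. That ratio was 0.25 without the library of size factor 0.372, 0.92 without that of 1.53 and 0.93 with 1 added to both means, none of which passes 2-fold.

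SOX6, a factor of red cell maturation, cartilage and muscle, was the member with the lowest ratio, and both of its records pointed the same way. The first, XM_004369675.1, had 0.641, 7.79, 0 and 0 normalized counts in the 4 libraries, with means of 2.11 and 19.1 and a log2 ratio of -3.18, or -6.48 without the library of size factor 1.03. The second, XM_004369676.1, had 2.57, 6.81, 17.7 and 0, with means of 6.78 and 28.5 and a log2 ratio of -2.07, or -3.19 without that of 0.620. Both are transcripts of 1 gene, and how reads were shared between such records is not given in the sources used here. Single values of the 7 libraries were not recovered for either record. SOX30, a factor of male germ cell development, also had the lower mean in the 4 libraries. It had 0, 1.95, 8.06 and 8.07 there, a mean of 4.52 against 11.8 and a log2 ratio of -1.38, or -0.96 without the library of size factor 1.56.

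ALAS2, the first enzyme of haem synthesis in red cell precursors, had means of 168 in the 4 libraries and 467 in the 7, and SLC4A1, the band 3 anion exchanger of red cells, 13.9 and 18.5, a log2 ratio of -0.41 that was -1.35 without the library of size factor 0.620. Both are the erythroid markers with a row, of 4, and their sums were 182 and 486. In bulk samples, fewer cells of a type and less RNA per cell cannot be told apart, and the part of red cell precursors in the SOX6 values was not tested.

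**Figure D4:**
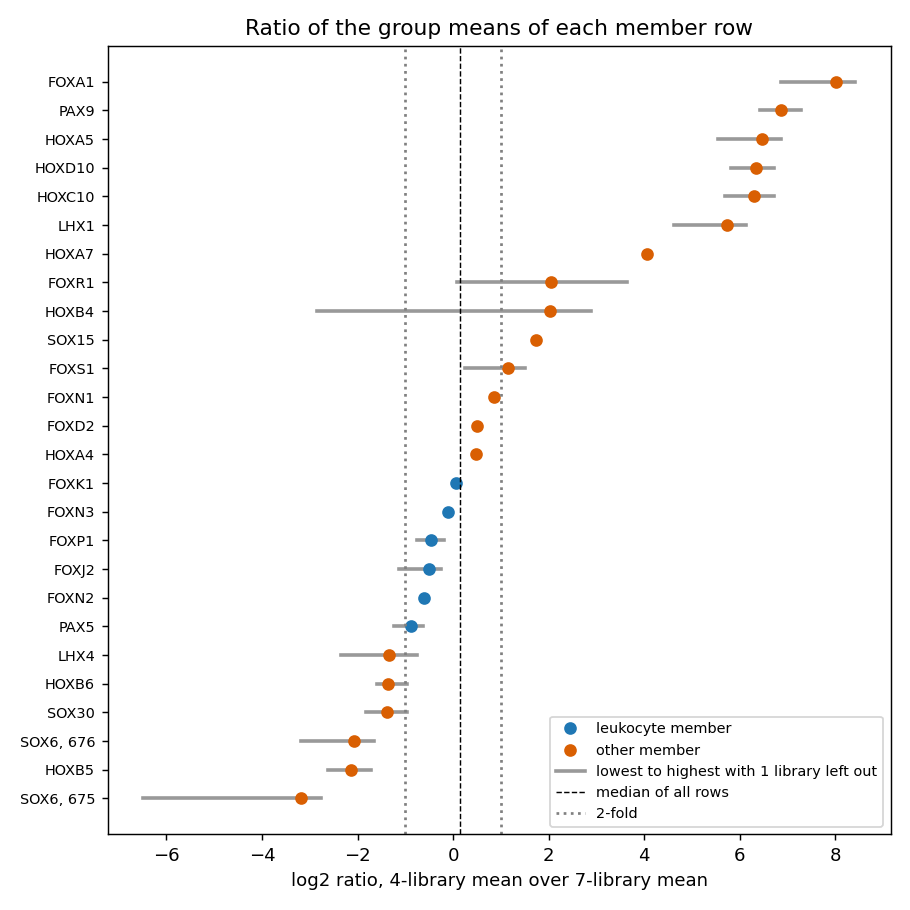
Log2 of the 4-library mean divided by the 7-library mean for 26 of the 27 member rows with over 3 reads in at least 1 group, as 1 is not reported here (blue, leukocyte members; orange, other members); grey lines run from the lowest to the highest value with 1 library left out, for named members with recovered reads. HOXB4 spans -2.84 to 2.89, whereas FOXA1 stays between 6.86 and 8.41.

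PAX5 had 23.1, 10.7, 22.6 and 40.4 normalized counts in the 4 libraries, with means of 24.2 ± 12.2 (SD, n = 4) and 44.5. All 4 libraries lay below the 7-library mean, and the log2 ratio of -0.88 was the lowest of the leukocyte members. Single values of the 7 libraries were recovered for none of these members, so their differences were not tested. FOXP1 had 23.1, 10.7, 29.0 and 40.4, with means of 25.8 ± 12.3 (SD, n = 4) and 35.5 and a log2 ratio of -0.46. FOXN2, a forkhead factor expressed in lymphoid cells, had means of 371 and 562 and a log2 ratio of -0.60. FOXJ2, a widely expressed forkhead activator, had 14.1, 13.6, 8.06 and 37.7, with means of 18.4 ± 13.2 (SD, n = 4) and 26.1 and a log2 ratio of -0.51. The remaining leukocyte members, FOXK1 and FOXN3, given to complete the list after their values were seen, had log2 ratios of 0.07 and -0.11. The library of the smallest size factor, 0.372, was highest in 3 of the 5 recovered leukocyte rows, as it was in 35.2% of all rows under 40.

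Genes that work with PAX5 in B cells had means near each other. Of 10 such genes 6 had a row, of which 0 were at least 2-fold higher and 1 was at least 2-fold lower in the 4-library mean; the log2 ratios had a median of -0.30. The lower one was CD22, an inhibitory receptor of B cells, at 39.0 and 81.6, a log2 ratio of -1.07 that was within 2-fold without the library of size factor 1.56, 1.03 or 0.620 (-0.98, -0.91 and -0.83) and -1.70 without that of 0.372. MS4A1, the B cell surface protein CD20, had the highest mean of the list, 370.1 in the 4 libraries and 415 in the 7. BACH2, a repressor that restrains plasma cell formation, had 162 and 231, and BLNK, an adaptor of the B cell receptor, 105 in each. EBF1, which acts with PAX5 in B cell commitment, had 17.0 and 23.1.

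No row was matched to FOXP3, but 5 of 9 genes tied to regulatory T cells had one. Of these, 3 were at least 2-fold higher in the 4-library mean. LRRC32, which displays latent TGF-beta on activated regulatory T cells and on platelets, had means of 21.2 and 3.82. CCR4, a chemokine receptor, had the highest mean of the list, 459 and 136, and CTLA4, an inhibitory receptor, had 302 and 119. IKZF2, the factor Helios, had 107 and 181, and TIGIT, another inhibitory receptor, 11.9 and 18.8, a log2 ratio of -0.66 that was -1.16 without the library of size factor 1.03. The median log2 ratio was 1.34.

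With no row matched to a FOXO gene, the surroundings of FOXO factors were read from kinases and targets. Of 11 FOXO regulators 9 had a row, with 1 at least 2-fold higher in each direction and a median of -0.10. PIK3CA, a catalytic subunit of PI3 kinase, had means of 5489 and 2314, and PIK3CD, the leukocyte subunit, 15.0 and 35.4, a log2 ratio of -1.24 that was -0.91 without the library of size factor 0.620 and -2.10 without that of 0.372. YWHAZ, a 14-3-3 protein, had 144 and 83.8, and AKT1, the kinase that keeps FOXO out of the nucleus, 111 and 167. Of 18 FOXO targets 15 had a row, with 3 higher and 1 lower by 2-fold and a median of 0.05. PIK3IP1, an inhibitor of PI3 kinase, had 321 and 85.5, and CITED2, a transcriptional co-regulator, 178 and 64.8. BCL6, a repressor of germinal centre B cells that is also expressed in neutrophils, had 5.10 and 36.2, a log2 ratio of -2.83 that was -4.20 without the library of size factor 0.620. TXNIP, a regulator of glucose uptake, had the highest mean count of the list, 15022 and 21844. GADD45A, a stress response gene outside the rule and named after its value was seen, had 489.6 and 179.

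HOX cofactors of the PBX, MEIS and PKNOX families, which bind DNA together with HOX proteins, had a row for 6 of 9 genes, with 1 at least 2-fold higher in each direction and a median of 0.12. PBX2 had the highest mean count of the list, 732 and 730.0, PBX3 had 95.3 and 81.4, and PKNOX1 had 42.7 and 91.5, with a log2 ratio of -1.10 that was -0.98 without the library of size factor 0.620. The means of PBX2, PBX3 and PKNOX1 lay closer together than those of HOXA5, HOXC10 and HOXD10, the HOX members with the highest ratios. Those HOX rows had 1 or 2 reads over the 7 libraries. MEIS2, a cofactor given after its value was seen, had means of 0.916 and 0.129. Its 4 libraries held 0, 0.974, 0 and 2.69, too few reads for a ratio. Among regulators of HOX chromatin, 9 of 14 had a row, again with 1 in each direction and a median of 0.12. KMT2A, the methyltransferase that keeps HOX genes active, had the highest mean count, 1541 and 2376. MEN1, its partner menin, had 9.16 and 26.6, and CBX7, a Polycomb protein, had 13.0 and 22.0. Without the library of size factor 0.372 their log2 ratios went from -1.54 to -2.40 and from -0.77 to -1.97. RNF2, the Polycomb ubiquitin ligase, had 1013 and 559, and EED, which reads and spreads the Polycomb mark, 367 and 290.0.

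Partners of LIM and further homeobox factors had a row for 6 of 12 genes, with 1 at least 2-fold higher in each direction and a median of -0.32. The higher one, LDB2, a LIM-binding adaptor named after its value was seen, had a log2 ratio of 2.12, or 0.90 without the library of size factor 0.620. EYA1, a coactivator of homeobox proteins, had means of 11.5 and 39.3, a log2 ratio of -1.78 that was -3.30 without the same library. LMO2, a bridge protein of blood stem cell and red cell complexes, had the highest mean count, 617 and 885. LMO4, a related LIM protein, had 73.1 and 140.4 (-0.94, or -1.06 without the library of size factor 0.620 and -1.11 without that of 0.372), and EYA3, another coactivator, 27.8 and 30.2. Of 24 further tissue-specific factors only 2 had a row: EHF, an epithelial ETS factor, with 29.5 and 57.9 (a log2 ratio of -0.98, or -1.99 without the library of size factor 0.620), and OTX1, a forebrain factor given after its value was seen, with 12.6 and 1.10 (3.52, or 2.46 without that of 0.372). Their means thus differed in opposite directions.

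Markers of cell types were set beside these values. General leukocyte markers were within 2-fold, with means of 3572 and 3481 for ITGB2, the beta-2 integrin, 2180.4 and 2108 for CD53, a tetraspanin, and 28.4 and 45.1 for CORO1A, an actin regulator. They had a row for 3 of 5 genes and sums of 5781 and 5634. All 5 neutrophil markers with a row, of 6, were at least 2-fold lower in the 4-library mean, with sums of 1978 and 11739.9. The study lists MMP9 and CXCR2 among them as upregulated in red tide, opposite to the groups as matched here by weights and title. S100A9, a calcium-binding protein of neutrophil cytosol, had the highest mean count, 835 and 5429, MMP9, the granule gelatinase, had 76.5 and 762, CXCR2, a chemokine receptor, 65.4 and 598, S100A8, the partner of S100A9, 576 and 2961, and CSF3R, the G-CSF receptor, 425 and 1989.8. All 3 platelet markers with a row, of 5, were at least 2-fold higher, with sums of 4092 and 1947. ITGA2B, the platelet integrin, had 3996 and 1919, GP9 had 66.1 and 18.6, and GP1BB, which like GP9 belongs to the von Willebrand factor receptor, had 30.2 and 9.53. Without the library of size factor 0.620 the log2 ratio of GP9 went from 1.82 to 1.01 and that of CXCR2 from -3.19 to -4.26. These lists thus differed between the group means; whether by cell number or RNA per cell cannot be told apart, and their part in the values of the developmental factors was not tested.

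Other blood markers were few. CD2, an adhesion receptor, was the only T cell marker of 5 with a row, at 123 and 285, and MS4A1 the only one of 4 for B cells. Monocyte markers had a row for 2 of 4, CSF1R with 449 and 496 and CD68 with 70.8 and 76.4, and sums of 519 and 572.

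Markers of solid tissues, in which most of these factors act, differed in both directions. Epithelial markers had a row for 2 of 6: KRT19, a keratin, had 11.6 and 23.0 (-0.99, or -1.22 without the library of size factor 1.56 and -1.35 without that of 0.620), and CDH1, the epithelial cadherin, given after its value was seen, 11.6 and 5.62, with a log2 ratio of 1.05 that was 0.77 without the library of size factor 0.620 and 0.84 without that of 0.372. Hepatocyte markers had a row for 2 of 5, with APOA1, an apolipoprotein, at 90.5 and 198, TTR, the transthyretin gene given after its value was seen, at 1.35 and 0.731, with all of its 4-library reads in the library of size factor 0.372, and sums of 91.8 and 199. The only endothelial marker of 4, KDR, a VEGF receptor, had 449 and 291, the only fibroblast marker of 5, PDGFRB, had 2.66 and 0.259 (a log2 ratio of 3.36 that was 0.33 without the library of size factor 0.620), and the only skeletal muscle marker of 4, ACTA1, had 6.10 and 2.83 (1.11, or 0.79 without that library and 0.37 without that of 0.372). Neuron markers had a row for 2 of 4: STMN2, a microtubule regulator, had 149.6 and 114, and SYT1, the calcium sensor of synaptic vesicles, had 25.9 and 1.26, with 0, 0, 58.0 and 45.7 in the 4 libraries and a log2 ratio of 4.37, or 3.60 without that of 0.620. The libraries of size factor 0.620 and 0.372 thus held the reads of SYT1 as they did those of HOXC10. Of all rows under 40 with recovered reads, the library of size factor 0.620 was the highest in 32.6% and that of 0.372 in 35.2%. None of the 15298 rows of the table had a group mean of 0, so having reads in both groups sets no listed row apart. The part of these tissues was not tested.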

How the data were processed

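Reads of 11 buffy coat libraries were trimmed with cutadapt, mapped to TriManLat1.0 with Bowtie2 and counted per gene sequence by the authors, who used in-house scripts of a sequencing centre together with SAMtools and with DESeq and edgeR in the DEB tool; duplicates were removed and only uniquely mapped reads kept. Values in the deposited table are a signal: the authors divided each library's counts by its DESeq size factor and averaged them over all libraries and within both groups. Its fold change, log2 fold change, p-value and adjusted p-value columns hold the authors' comparison and were not used. Records were matched to RefSeq symbols without version, which named 10080 rows. Reads per library were recovered from 4-library means up to 80 (9632 of 9634 rows gave 1 combination) and 7-library means up to 6 (4464 of 4505), within 6e-10, or 6e-09 from a mean of 10. The recovery was tested on simulated data. The depth in mapped reads is not analysed here.

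Single rows were tested with a two-sided exact permutation test of mean normalized counts (scipy 1.17.1, smaller tail doubled) with Benjamini-Hochberg adjustment, and with limma 3.58.1 in R 4.3.3 on log2(normalized count + 0.5). The permutation p was first computed by counting absolute differences; it was changed to the doubled tail, the definition scipy uses, after those results had been seen, and both forms are given below. Intervals are 95% Poisson intervals for 1 to 3 reads in the 7 libraries, and these and the floor of 3 reads over a group cover counting error only. Python 3.11.15, numpy 2.4.6 and pandas 2.3.3 were used.

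Named are FOXA1, FOXO, FOXP and PAX5 members, the 10 highest and 10 lowest ratios among members with a mean of at least 1, the 5 members with the highest mean, members without overlap, and of each partner or marker list the 2 highest and 2 lowest ratios with a mean of at least 10 and the highest mean. CTLA4, EBF1, PDGFRB, ACTA1, HOXB3, NKX6-2 and SOX17 fall outside this rule and were named after their values were seen. Members and lists were chosen with earlier results of these data known. Lists use 1 record per symbol, the one with the highest mean. Mean counts were not divided by transcript length, so the highest mean count in a list is not the highest level. A few members and list genes are not reported here, though counts, sums and medians include them.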

Additional observations from a re-analysis of the deposited data

Results flagged for a closer look

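A library far from the others of its group, by the ratio of its gap to the whole range, was found in 18 of 46 groups of values; chance gives about 1 in 20. Groups with 1 read, or with reads in 1 library only, always meet this rule, with a ratio of 1.00: in the 7-library group FOXA1, HOXA5, HOXA7, HOXB3, HOXC10, HOXD10, LHX1, NKX6-2, PAX9 and SOX17, and in the 4-library group HOXB3, HOXB6 and SOX17. In the 4-library group the ratio was 0.973 for HOXB4 and 0.885 for HOXA4, both highest in the library of size factor 0.620, and 0.918 for the SOX6 record XM_004369675.1. In the 7-library group it was 0.607 for FOXR1 and 0.571 for LHX4.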

How the results depend on the processing

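No paired analysis was possible because the columns and the recovered libraries carry no replicate number. The exact permutation test called 0 members in its main form and with absolute differences counted. It also called 0 on log2(normalized count + 0.5) and over the rows with both means at most 6. In the main form even the smallest permutation p the design allows was adjusted to 0.212. The 0 calls were thus fixed there and are not a result about the members. Limma called 4 of the 19 member rows tested (FOXA1, HOXD10, LHX1 and PAX9), against 6.03% of all rows tested. All rows it called had the higher value in the 4 libraries. Rows with a 7-library mean above 6 could not enter, which favours that direction. The count of 4 is therefore not given as support. The form with absolute differences, which was run first and replaced after its results had been seen, gave a smallest permutation p of 0.00303, 952 rows (21.4%) with an unadjusted p under 0.05 against 660 (14.8%), and a smallest adjusted p of 0.110 against 0.212; it called 0 rows as well. Among rows with a mean of at least 10, 1 member passed 2-fold towards the 4-library mean and 3 towards the 7-library mean. The medians were then -0.55 for all members and -2.07 for the other members. Of the other members that filter keeps only FOXA1, HOXA4, HOXB5 and both SOX6 records. At 4-fold, 11 member rows passed towards the 4-library mean and 3, with SOX6 counted 2 times, towards the 7-library mean, against 12.0% and 2.27% of all rows. With 1 of the 4 libraries left out, 12 to 16 members passed 2-fold towards the 4-library mean and 4 to 10 towards the 7-library mean. The shares of the rows under 40 were 32.9% to 39.6% and 13.8% to 17.5%. The 10 include HOXB6 and SOX17 at a 4-library mean of 0. The median of all members ran from -0.14 to 1.27. Leaving out 1 of the 4 libraries for these counts and medians was chosen after seeing the data. The members without overlap numbered 2 to 4 with 1 library left out, against 3.13% to 11.7% of all rows tested, and 0 among rows with both means at most 6, where neither FOXA1 nor HOXD10 belongs. The log2 ratio of HOXB4 ran from -2.84 to 2.89 with 1 library left out and reversed without that of size factor 0.620. The causes of these changes were not tested. Where the only reads of the 7 libraries lay in 1 library, leaving it out gave no ratio. Few reads limit all ratios against 7-library means near 0.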
